A study of Mus musculus with 4 samples.

Results

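The nuclear genes of the mitochondrial respiratory chain and of the ATP synthase were examined for KAP1 on their chromatin in mouse regulatory T cells. They were taken by symbol, as the protein-coding genes of chromosomes 1 to 19 in the NCBI RefSeq gene table of GRCm38.p6 that start with Nduf, Uqcr, Atp5, or Cox followed by a number. This gave 98 genes of 20665 coding genes on those chromosomes. They divide into 39 complex I subunit genes, 8 complex I assembly genes (Ndufaf), 8 complex III genes (Uqcr), 17 complex IV subunit genes, 9 complex IV assembly genes (Cox10 to Cox20) and 17 ATP synthase genes. A further 3 genes with such symbols lie on chromosome X and were left out by the rule.

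The cells were regulatory T cells from the spleen of C57BL/6 mice, sorted and then grown in culture for 2 weeks. Chromatin of 2 samples was precipitated with an antibody against KAP1 (Active Motif, 1Tb-A9) and sequenced, and 2 input samples received no antibody and were not analysed here. All samples share strain, tissue and culture, so no treatment or genotype is compared. The surface markers used for sorting, and whether the replicates came from separate mice or cultures, are facts the sources used here do not give, and summit lists hold no expression by which the cell type could be checked.

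Respiratory complexes are built from many proteins. Complex I takes electrons from NADH, complex III passes them from ubiquinol to cytochrome c, complex IV delivers them to oxygen, and the ATP synthase uses the resulting proton gradient to make ATP. Most of the proteins are encoded in the nucleus, and their promoters are known for binding sites of NRF1, of GABP and other ETS factors, and of YY1. KAP1 (Trim28) is a scaffold protein best known for recruiting histone methyltransferase and deacetylase activities to sites that KRAB zinc finger proteins recognise. Regulatory T cells are known to rely more on oxidative metabolism than activated effector T cells do.

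Each KAP1 sample has a list of peak summits, the base of highest enrichment in each peak, scored on a −log10 scale by p-value or by q-value. Replicate 1 holds 8862 summits (median score 7.25) and replicate 2 holds 79515 (median 8.39), and the read depth behind them is unknown. A summit of replicate 1 with a replicate 2 summit within 200 bp is called shared here, and 7720 were. Since the lists differ so much in length, scores are read as percentiles within their own list.

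The promoter sequences below belong to members whose shared summit fell upstream of an annotated start, and they show what lies under and beside KAP1 there. The first 3 are the 250 bases before the start in RefSeq GRCm38.p6, with matches to the motifs named further on in capitals. Among members with a shared summit in such a stretch, Ndufaf1 had the best-ranked one, Ndufb7 differed most in rank between replicates, and Atp5k was the only one with an NRF1 match.
Ndufaf1 (chr2:119662835-119663084, minus strand): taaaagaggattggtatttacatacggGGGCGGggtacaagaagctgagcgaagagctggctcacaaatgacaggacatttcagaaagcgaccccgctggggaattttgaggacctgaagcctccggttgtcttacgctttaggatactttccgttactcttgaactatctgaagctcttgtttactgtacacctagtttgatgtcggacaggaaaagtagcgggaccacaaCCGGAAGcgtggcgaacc
Ndufb7 (chr8:83566508-83566757, plus strand): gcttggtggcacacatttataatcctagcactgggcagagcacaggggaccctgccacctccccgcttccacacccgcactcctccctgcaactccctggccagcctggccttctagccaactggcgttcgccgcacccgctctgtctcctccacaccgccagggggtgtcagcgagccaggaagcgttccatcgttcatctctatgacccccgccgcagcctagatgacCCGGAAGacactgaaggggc
Atp5k (chr5:108434400-108434649, minus strand): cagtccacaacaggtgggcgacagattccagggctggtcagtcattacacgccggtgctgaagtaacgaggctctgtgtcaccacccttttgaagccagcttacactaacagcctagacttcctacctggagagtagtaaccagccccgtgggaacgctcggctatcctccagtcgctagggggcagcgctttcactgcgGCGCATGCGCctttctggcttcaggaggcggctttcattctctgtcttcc
The next 3 are the 61 bases around the replicate 1 summit, with the middle 11 bases in capitals. In all 3 the 2 replicates placed the summit within 5 bp of each other, which also held for Ndufaf1 and Atp5k and so does not set these 3 apart.
Ndufab1 (chr7:122101962-122102022, minus strand): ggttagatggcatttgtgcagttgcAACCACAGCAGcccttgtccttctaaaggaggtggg
Cox7c (chr13:86046829-86046889, minus strand): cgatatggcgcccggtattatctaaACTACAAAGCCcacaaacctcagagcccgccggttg
Ndufv1 (chr19:4012889-4012949, minus strand): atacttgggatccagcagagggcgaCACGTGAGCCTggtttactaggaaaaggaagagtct

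KAP1 was found by both replicates at an end of 14 of the 98 genes. An end means within 1 kb of the lowest or the highest coordinate of the gene. The 14 genes are 14.3% of the members (Wilson 95% interval 8.7 to 22.6%, counting error only), beside 8.94% of all coding genes. Every group was represented, with 4 of 39 complex I subunit genes (10.3%), 2 of 8 complex I assembly genes, 1 of 8 complex III genes, 3 of 17 complex IV subunit genes (17.6%), 2 of 9 complex IV assembly genes and 2 of 17 ATP synthase genes (11.8%). Taken by itself, the replicate 1 list had summits at the ends of 18 members (18.4%, beside 9.84% of coding genes), and the replicate 2 list at 38 (38.8%, beside 23.2%). The higher share was not seen among stronger summits. When only scores at or above the median of both lists were kept, 5 members had a shared end summit (5.1%, beside 5.21% of coding genes), and with replicate 2 reduced to its 8862 highest scores the count was again 5 (5.1%, beside 4.02%). At these stricter settings the share among members was near the background. By gene length, 4 of 31 members under 5 kb had a shared end summit (12.9%, beside 4.46% of coding genes of that length), 9 of 53 from 5 to 20 kb (17.0%, beside 10.9%) and 1 of 14 over 20 kb (7.14%, beside 9.75%).

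**Figure D1:**
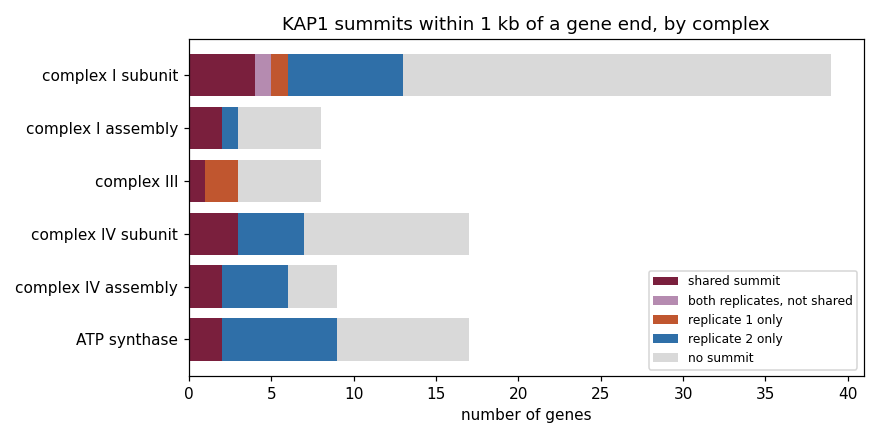
Number of genes (x axis) in each complex (y axis) by the KAP1 summits within 1 kb of an end: shared by both replicates, present in both but not shared, in replicate 1 only, in replicate 2 only, or none. Complex I subunits are the largest group with 39 genes, of which 4 have a shared summit, and the 7 other ATP synthase genes with a summit have it in replicate 2 only.

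Among complex I subunits, the genes with a shared end summit were Ndufab1, Ndufb3, Ndufb7 and Ndufv1. Ndufab1 (chr7:122086815-122101848), which encodes the mitochondrial acyl carrier protein that is also a complex I subunit, had its summit 144 bp upstream of the start. The scores were 8.31 in replicate 1 and 11.05 in replicate 2, at percentiles 55.0 and 72.1, so both lay above the median of their list. Ndufb3 (chr1:58586397-58595964), a subunit of the membrane arm, had one 134 bp downstream of its start with scores of 8.34 and 10.5 (percentiles 58.3 and 69.6). This summit also lay 198 bp outside Fam126b, so it lies at the ends of both genes. Ndufb7 (chr8:83566758-83571623), another membrane arm subunit, had one 191 bp upstream, with a low score of 4.32 in replicate 1 (percentile 18.2) and a high score of 23.68 in replicate 2 (percentile 96.8). Ndufv1 (chr19:4007499-4012755), the subunit that binds NADH and the flavin cofactor, had one 164 bp upstream that ranked low in both lists (4.61 and 6.5, percentiles 19.6 and 21.4).

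The assembly factors of complex I gave Ndufaf1 and Ndufaf7. Ndufaf1 (chr2:119655446-119662839), a chaperone of the membrane arm intermediate, carried the summit 30 bp upstream of its start, with scores of 17.03 and 20.47 (percentiles 85.5 and 95.5). Both replicates therefore ranked it among their stronger sites, and the 2 positions were 2 bp apart. Ndufaf7 (chr17:78937106-78948052), an arginine methyltransferase, had a shared summit 154 bp upstream with scores of 6.16 and 7.4, which fell on the same base in both lists. That base lies inside the neighbouring gene Cebpz, 89 bp from its end, and is closer to Cebpz than to Ndufaf7.

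In complex III, Uqcr11 (chr10:80402997-80406821), a small subunit gene, was the most densely occupied member at its ends and was the only member with shared summits at both. The stronger lay at position 80403492 of chromosome 10, inside the gene 495 bp from the lower coordinate, which is the downstream end of this minus-strand gene. Its scores were 32.48 and 29.51 (percentiles 95.9 and 98.0). The other lay 912 bp downstream of the start, with scores of 17.03 and 13.71 (percentiles 85.5 and 85.8). With 2 more outside the gene, Uqcr11 had 4 shared summits within 20 kb, the highest number among the members.

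Among complex IV subunits, Cox6c, Cox7c and Cox5a had shared end summits. Cox6c (chr15:35931976-35938246) had the best-ranked end summit in replicate 2, with scores of 24.82 and 48.69 (percentiles 92.3 and 99.4), and it lay 13 bp outside the higher coordinate of the gene. Cox7c (chr13:86044798-86046795) had one 64 bp upstream with scores of 5.1 and 8.31, below the median of each list. Cox5a (chr9:57517328-57532427) had the lowest score of the 14 genes in replicate 1 (3.21, percentile 7.0) against 7.57 in replicate 2, and its summits were 112 bp apart, so the pair was lost at a sharing distance of 50 bp. Ndufa4, counted with complex I by its symbol, is now assigned to complex IV and had no shared end summit. Cox5a, Cox6c and Cox7c are among the 10 genes that encode the general subunits or, as Cox7a2l, a factor of supercomplex assembly. None of the 7 genes for isoforms known from particular tissues such as muscle, lung or testis (Cox4i2, Cox6a2, Cox6b2, Cox7a1, Cox7b2, Cox8b and Cox8c) had a shared end summit, and beside 8.94% of all coding genes a count of 0 in 7 does not set them apart. The replicate 2 list had summits at the ends of 3 of them, Cox4i2, Cox7a1 and Cox7b2, beside 23.2% of coding genes.

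Of the complex IV assembly genes, Cox16 and Cox18 had shared summits that ranked low in both lists. Cox16 (chr12:81358852-81485137), a copper insertion factor, had scores of 5.1 and 6.05 (percentiles 28.6 and 15.5) at 102 bp inside the gene, where the predicted gene Gm20498 overlaps it. Cox18 (chr5:90214724-90224595), a membrane insertase for a mitochondrially encoded subunit, had 5.56 and 6.72 (percentiles 36.4 and 25.4) at 217 bp inside. Both were lost when weaker summits were set aside.

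The ATP synthase genes with shared end summits were Atp5a1 and Atp5k. Atp5a1 (chr18:77773768-77782869) encodes the alpha subunit of the catalytic F1 head, and its summit lay 209 bp inside the gene. The score was 4.4 in replicate 1 (percentile 18.3) and 28.85 in replicate 2 (percentile 97.9), so that, as at Ndufb7, the replicates ranked it far apart. It lay closer to Haus1, 92 bp outside that gene. Atp5k (chr5:108433246-108434399), the e subunit of the membrane part, had one 130 bp upstream with scores of 5.1 and 8.82. No gene of the c ring (Atp5g1, Atp5g2, Atp5g3) and none of the 4 peripheral stalk genes (Atp5pb, Atp5h, Atp5j, Atp5o) had a shared end summit, while 1 of 5 genes of the F1 part and 1 of 5 of the membrane part had. Beside 8.94% of all coding genes, groups this small can hold none without standing apart.

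**Figure D2:**
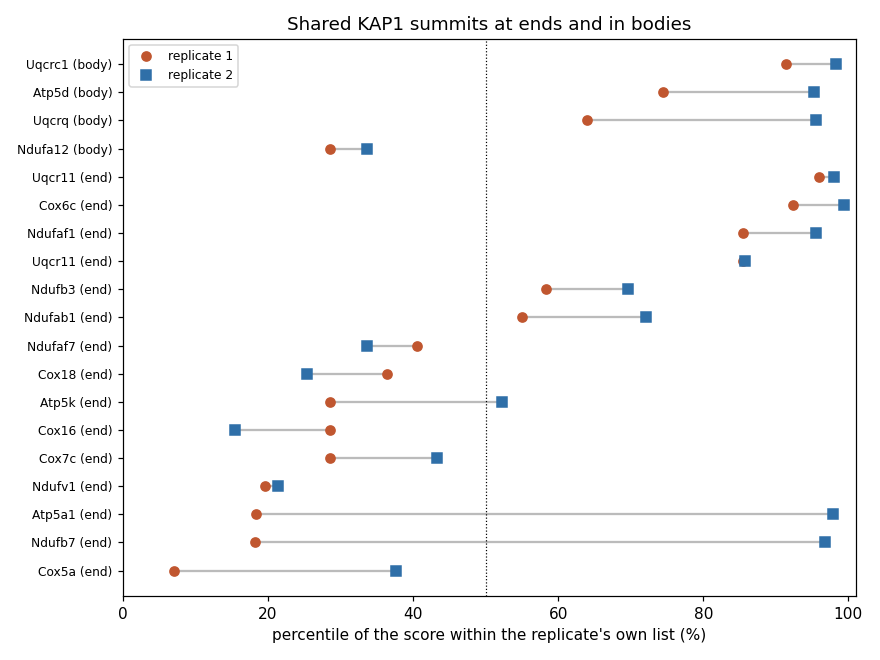
Percentile of the score within its own list (x axis) for each shared summit at an end or in the body of a member (y axis), with circles for replicate 1, squares for replicate 2 and a dotted line at the median. At ends, Uqcr11, Cox6c and Ndufaf1 sit above percentile 85 in both replicates, as does the body summit of Uqcrc1. Atp5a1 and Ndufb7 sit near percentile 18 in replicate 1 and above 96 in replicate 2.

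The shared end summits were placed close to the gene boundary. Of the 15 at member ends, 13 lay within 300 bp of the boundary (86.7%, median distance 144 bp), beside 49.5% of 1959 such summits over all coding genes (median 306 bp). Summits at member ends that only replicate 2 had were farther away. Of these, 5 of 27 lay within 300 bp (18.5%, median 640 bp), beside 31.2% over all coding genes. In 13 of the 15, the positions in the 2 replicates differed by at most 10 bp. The median difference was 3 bp, beside 6 bp over all shared summits, so close positions were common and not particular to members.

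Where the strand was known, most of these summits lay near a start. The RefSeq promoter table gives the strand and start for 79 of the 98 members and for 16457 coding genes. Of these 79, 11 had a shared summit within 1 kb of a start (13.9%, beside 8.57% of the coding genes in the table). At the other end, where it was over 2 kb from any start, 1 of 70 members had one (1.43%, beside 1.42%), and that gene was Uqcr11. The 11 genes include Atp5d, whose summit in the body lay 911 bp downstream of an annotated start, and leave out Cox5a, whose end summit lay 4182 bp from the only start listed. In 9 of the 11, the replicate 1 summit lay from 191 bp upstream to 134 bp downstream.

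**Figure D3:**
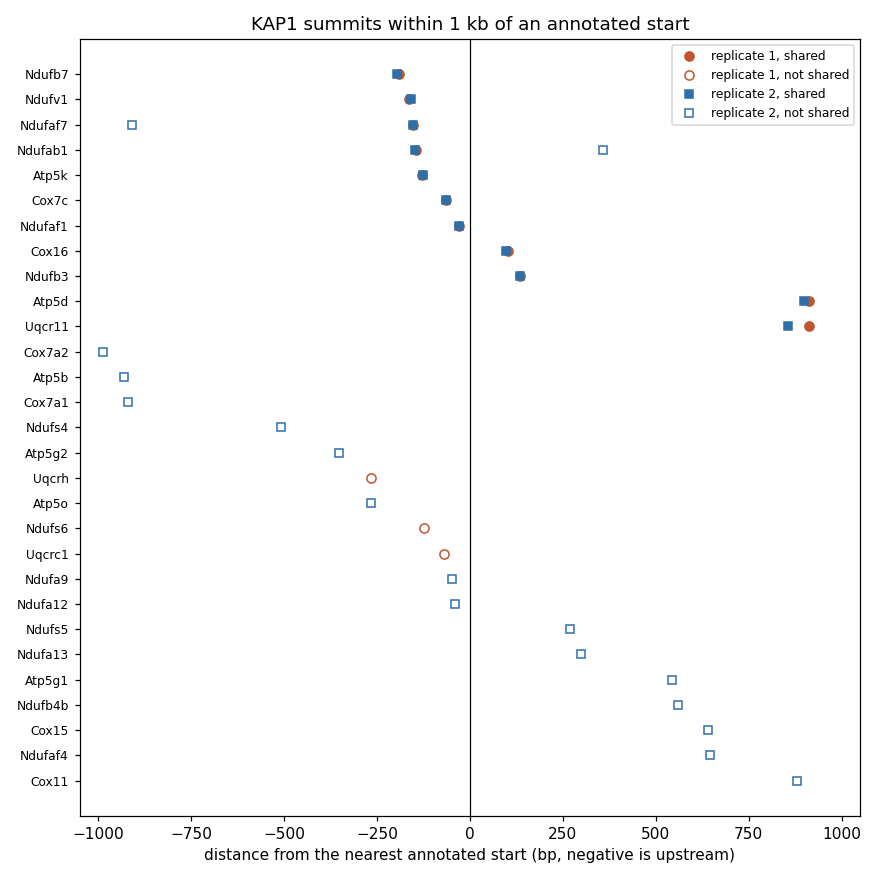
Distance in bp from the nearest annotated start (x axis, negative is upstream) of every KAP1 summit within 1 kb of a start, one gene per line (y axis), with circles for replicate 1, squares for replicate 2, filled when shared. Filled circles of 9 genes gather between 191 bp upstream and 134 bp downstream, with Atp5d and Uqcr11 near 900 bp, while the open symbols are spread over the window.

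Members with an end summit went from 18 in the replicate 1 list (18.4%) to 14 in the shared set (14.3%). Over all coding genes the shares were 9.84% and 8.94%. Away from the ends, replicate 1 summits without a partner reached percentile 48.3, at 4409 bp from Cox6a1 (score 7.25). At member ends they ranked low, at Ndufs6 (score 4.17), Uqcrh (2.31), Ndufa13 (2.31) and Uqcrc1 (1.48), at percentiles of 14.3 or lower. The closest replicate 2 summit was 1240 bp away at Ndufs6, 10194 bp at Uqcrh, 1570 bp at Ndufa13 and 1462 bp at Uqcrc1. At Ndufs6, Uqcrh and Ndufa13 the summit lay inside a neighbouring gene, namely Mrpl36, Lrrc41 and Tssk6.

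Replicate 2 gave end summits at 24 further members, with scores from 3.54 to 18.53, of which 12 were at or above the median of its list. The strongest was at Ndufs3 (18.53, percentile 94.2), a core subunit of complex I, inside the gene 818 bp from its lower coordinate and far from its start. Cox7a1, the muscle isoform of a complex IV subunit, followed with 15.82 at 920 bp upstream of its start. Atp5o, the OSCP subunit that joins the F1 head to the stalk, had 13.14 at 267 bp upstream. Next came Cox11 (12.41), Atp5mpl (11.93), Atp5j2 (10.85), Cox14 (10.82), Cox15 (10.76), Ndufs5 (10.23) and Ndufb4b (9.26). The remaining 14 ended with Ndufaf4 at 3.54. Ndufa13 is counted here too, since its replicate 2 summit lay apart from that of replicate 1. No summit of either replicate lay at an end of 57 members. Most coding genes had none either, since replicate 2 had an end summit at 23.2% of them and replicate 1 at 9.84%.

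In gene bodies, shared summits were rarer than over coding genes as a whole. A body is the gene without 1 kb at each end, and 86 members were longer than 2 kb and had one. Of these, 4 held a shared summit (4.65%, Wilson 95% interval 1.8 to 11.4%, counting error only), beside 12.9% of coding genes with a body. Members are short, with a median length of 7312 bp against 17491 bp for coding genes, and a smaller share of short coding genes had a shared body summit. Whether length accounts for the lower share among members was not tested. In genes of 5 to 20 kb, 2 of 53 members had a shared body summit (3.77%, beside 6.75%), and over 20 kb 1 of 14 had (7.14%, beside 20%), while under 5 kb the count was 1 of 19 (5.26%, beside 1.14%). The replicate 1 list by itself gave the same count of 4 (beside 13.8%), and the replicate 2 list 35 of 86 (40.7%, beside 56.4%).

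The 4 genes were Uqcrc1, Uqcrq, Atp5d and Ndufa12. Uqcrc1 (chr9:108936648-108949641), a core subunit of complex III, had its summit on the same base in both lists, 1392 bp downstream of the start, with scores of 23.07 and 32.3 (percentiles 91.4 and 98.3). Uqcrq (chr11:53427922-53430831), a small subunit of complex III, had one at position 53429352 of chromosome 11 with scores of 9.37 and 20.33. It lay about equally far from the neighbouring gene Gdf9, at 1422 bp. Atp5d (chr10:80138698-80145828), the delta subunit in the central stalk of the ATP synthase, had one with scores of 11.97 and 20.06. Ndufa12 (chr10:94199035-94221440), an accessory complex I subunit, had one deep in the gene, 12776 bp from its start, with scores of 5.1 and 7.4. The first 3 ranked above the median in both lists and Ndufa12 below it. None was held by the 10 complex IV subunit genes, 9 complex IV assembly genes and 6 complex I assembly genes that had a body. Beside 12.9% of coding genes with a body, groups this small can each hold none without standing apart.

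The members with the most body summits in the replicate 2 list were long genes. Ndufs1 held 7 (33231 bp long, highest score 13.31), Ndufs4 held 6 (100300 bp, 14.08) and Cox10 held 5 (116846 bp, 19.71), genes named here after their values were seen. Over 20 kb, 12 of 14 members had such a summit (85.7%, beside 82.3% of coding genes of that length).

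**Figure D4:**
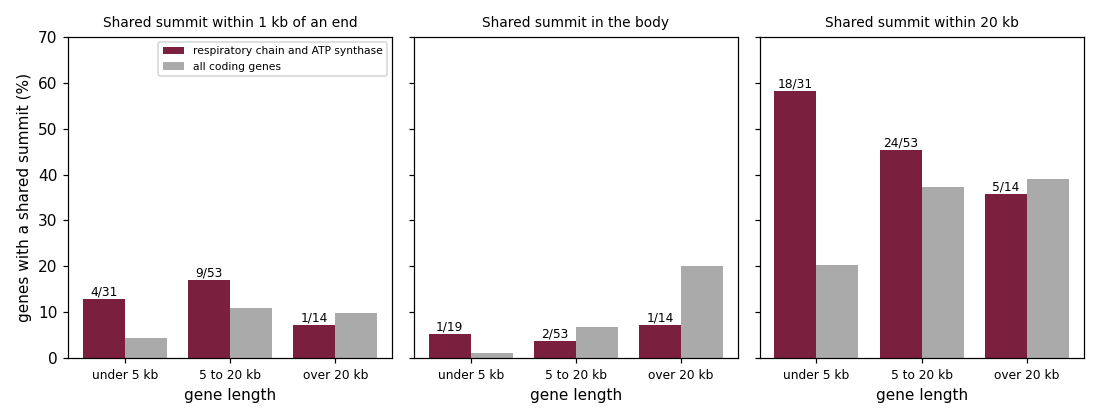
Percentage of genes with a shared KAP1 summit (y axis) in 3 classes of gene length (x axis), at an end, in the body and within 20 kb, for members (dark bars, with counts) and all coding genes (grey bars). Members stand above all coding genes within 20 kb in the class under 5 kb (18 of 31 against 20.3%) and below them for bodies over 20 kb (1 of 14 against 20%).

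Within 20 kb, the gene included, 47 members had a shared summit (48.0%, Wilson 95% interval 38.3 to 57.7%, counting error only), beside 34.3% of coding genes. Complex IV assembly genes had 6 of 9, complex I assembly genes 5 of 8, complex I subunits 20 of 39, complex IV subunits 7 of 17, complex III genes 3 of 8 and ATP synthase genes 6 of 17. Of the 47, 18 had the summit at an end or in the body and 29 only outside. By gene length, the counts were 18 of 31 under 5 kb (58.1%, beside 20.3%), 24 of 53 from 5 to 20 kb (45.3%, beside 37.2%) and 5 of 14 over 20 kb (35.7%, beside 39.0%). The replicate 1 list by itself gave 52 members (53.1%, beside 35.9%). The neighbourhood of these genes is crowded. Another coding gene had an end within 1 kb of an end of 54.1% of members, against 25.6% of coding genes. Of the 39 shared summits outside members, 17 lay within 1 kb of the end of another coding gene and 33 lay there or inside such a gene. The like share for all coding genes was not counted, so these counts do not set members apart. When each summit was counted only for the coding gene with the closest end, 20 members had one within 20 kb (20.4%, beside 21.8%), which is near the background. Whether close neighbours account for the higher share within 20 kb was not tested.

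The best-ranked outside summits lay at an end of another coding gene or inside one. The one 11242 bp from Ndufaf8, a complex I assembly gene, had scores of 33.38 and 70.29 (percentiles 96.3 and 99.8) and lay 827 bp outside Cep131. The one 8208 bp from Cox7a1 had 35.5 and 46.56 and lay inside Capns1. That near Ndufb10 had 19.16 and 44.85 and lay 131 bp outside Tbl3. The one 1595 bp from Atp5pb, the b subunit of the peripheral stalk, had 21.14 and 21.42 and lay inside Wdr77, and that near Atp5md had 15.91 and 26.37 and lay 452 bp outside Taf5. Each was closer to the end of another coding gene than to the member.

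Shares at ends were also taken by whether another coding gene was close. Of the 53 with another coding gene end within 1 kb, 7 had a shared end summit (13.2%, beside 13.5% of coding genes of that kind), and of the 45 without, 7 had (15.6%, beside 7.38%). With the replicate 2 list by itself the counts were 14 (26.4%, beside 29.5%) and 24 (53.3%, beside 21.1%). Members with and without close neighbours thus had similar shares in the shared set and unlike ones in the replicate 2 list, and with close neighbours the shared set was near its background.

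Within 20 kb, replicate 2 had a summit for 96 members (98.0%, beside 84.3%), with a median of 3 for members and 3 for coding genes. The members with no summit of either replicate in that span were Cox6a2, the muscle isoform of a complex IV subunit, and Ndufb4c, a gene of 485 bp named after Ndufb4.

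The promoters of members carried the motifs known for respiratory genes more often than those of coding genes. Searched on both strands of the 300-base windows (250 bases before to 50 after a start), the NRF1 palindrome, in capitals in the Atp5k sequence above with its middle free base, was found at 17 of 79 members (21.5%) and at 7.39% of the coding genes in the table, against 4.6% of all 32851 promoters. CCGGAAG for ETS factors was at 22 members (27.8%, beside 13.3% of coding genes and 8.86% of all promoters), and the YY1 motif at 7 (8.86%, beside 1.39% and 0.852%). TGACGTCA, the cyclic AMP response element, was at 4 members (5.06%, beside 2.62% and 1.79%), and the shorter TGACGT, which it contains, at 10 (12.7%, beside 9.74% and 7.51%). GGGCGG, the GC box, was at 37 members (46.8%, beside 50.3% and 35.7%). The B box of TFIIIC was at 1 member, Ndufs7 (1.27%, beside 0.176% and 0.122%). The median GC content was 58.7% in member promoters and 57.0% in those of coding genes. Motif shares of members and coding genes count a gene with a match in any of its windows. Those of all promoters count single windows and so are not a like measure. A match describes letters and not binding.

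Motif matches were found in the promoters of members with and without a shared end summit. An end summit need not lie in the promoter window, and those of Cox5a, Ndufb3 and Uqcr11 lay outside it. Of the 11 members in the table with a shared end summit, 5 had an ETS match (Atp5k, Cox16, Ndufaf1, Ndufb7 and Uqcr11), 5 had a GC box and 1 had an NRF1 match, and none had a YY1 or cyclic AMP match. Of the 68 without a shared end summit, 17 had an ETS match, 32 a GC box, 16 an NRF1 match and 7 a YY1 match. In the Ndufaf1 sequence printed above, the ETS match runs from position -18 to -12 and the summit is at -30, counted from the start base as 0. In Ndufb7 the match runs from -20 to -14 and the summit is at -191, and in Atp5k the NRF1 match runs from -50 to -41 and the summit is at -130. The printed windows of Cox7c, Ndufab1 and Ndufv1 hold none of the motifs within 30 bases of the summit.

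**Figure D5:**
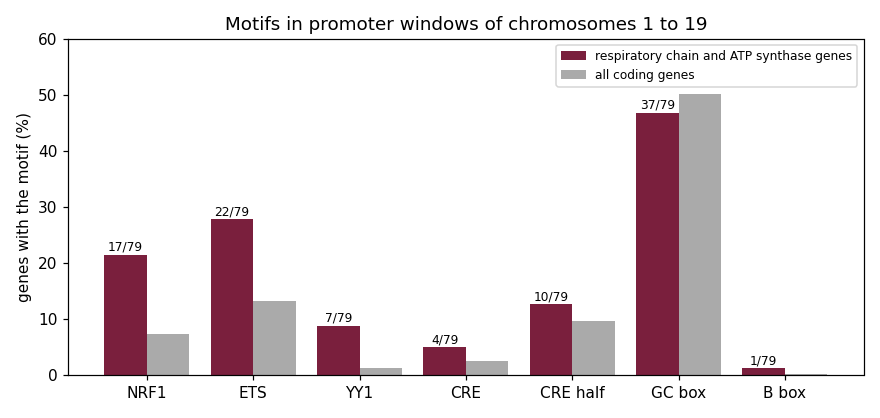
Percentage of genes with each motif in a promoter window (y axis), by motif (x axis), for the 79 members in the promoter table (dark bars, with counts) and its 16457 coding genes (grey bars). The NRF1, ETS and YY1 motifs are found at a higher percentage of members, and the GC box at a slightly lower one.

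Other genes of oxidative metabolism were read in the same way, from 68 genes of 7 lists outside the members. A shared end summit lay at 6 of the 68, and at 8.94% of all coding genes. In complex II, the succinate dehydrogenase, 1 of 8 genes had one, Sdha, the flavoprotein subunit (13.15 and 18.12, percentiles 77.5 and 93.9). Among the genes of cytochrome c and of other complex III proteins and factors it was Lyrm7, a chaperone of the Rieske protein (4.17 and 4.51), as 1 of 8. Among other complex I assembly genes it was Ecsit (4.19 and 9.88), as 1 of 7. The 14 other complex IV assembly genes, the 4 ATP synthase assembly genes and the 12 citric acid cycle genes had none. Of 15 nuclear regulators, 3 had one. These were Polrmt, the mitochondrial RNA polymerase (5.02 and 13.9), Pprc1, a coactivator related to PGC-1 alpha (5.1 and 6.92), and Creb1, which binds the cyclic AMP response element (9.5 and 7.7). Within 20 kb, 31 of the 68 genes had a shared summit, beside 34.3% of all coding genes.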

How the data were processed

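The authors' reads were processed with Bowtie2 2.2.9, Picard 2.1.1 and MACS2 2.2.1 on mm10, per the submitters' processing notes. The chromosome coordinates of mm10 are those of GRCm38. Their settings, control and threshold were not given in the sources used here. The authors deposited 1 summit list per KAP1 sample, not pooled, with a −log10 p-value or q-value per summit, and which of these it is was not stated. Scores were compared only within a list. Positions are 1-based.

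Genes, promoter windows and sequences came from RefSeq tables of GRCm38.p6, of which the gene table gives each gene's lowest and highest coordinate. Counts were made with Python 3.11.15 and pandas 2.3.3, and the assignment of summits was tested on simulated data. With 2 samples of 1 group, and genes that are not replicates, no test was made. Shares are set beside those of all coding genes of chromosomes 1 to 19. The members, the related lists, the motifs and the naming rule were chosen with earlier results of these data known, and the groups of subunits by role were set after the counts were seen. Named were all members with a shared summit at an end or in the body, all with an unshared replicate 1 summit there, the 10 highest replicate 2 end summits, the 5 best-ranked outside summits, and members with no summit. Of 71 related names, Coa1 was not found, and Usmg5 and Mp68 are older names of members. Alternatives were sharing distance, score filters, either replicate alone, closest gene only, subunits only, window sizes and a 200-base motif window.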

Additional observations from a re-analysis of the deposited data

How the results depend on the processing

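Counts of members were recomputed under each alternative, and a count within 1.5 times the main one was taken as unmoved. The 14 members with a shared end summit stayed between 10 and 18 under 7 alternatives. In each of these 7 the share was above that of coding genes, as with the closest gene only (12.2%, beside 7.9%). With an end window of 500 bp it was 14.3% (beside 6.18%) and with 2500 bp 18.4% (beside 13.2%). The count became 5 with scores at or above the median of both lists (5.1%, beside 5.21%) and 5 with replicate 2 reduced in length (5.1%, beside 4.02%). It was 38 without replicate 1 (38.8%, beside 23.2%) and 18 without replicate 2 (18.4%, beside 9.84%), a range of 18 to 38. Cox6c, Ndufaf1 and Uqcr11 kept their end summit under all 9 alternatives that applied to single genes. The 4 members with a shared body summit became 2 of 67 with 2500 bp removed at each end (2.99%, beside 12.5% of coding genes). They became 35 without replicate 1 (40.7%, beside 56.4%) and were 4 without replicate 2 (4.65%, beside 13.8%). Otherwise they stayed at 3 or 4, below the share of coding genes each time. The 47 members with a shared summit within 20 kb became 27 with scores at or above the median (27.6%, beside 23.0% of coding genes). With replicate 2 reduced the count was 28 (28.6%, beside 18.7%), and 20 when only the closest gene counted (20.4%, beside 21.8%). Without replicate 1 it was 96 (98.0%, beside 84.3%) and without replicate 2 it was 52 (53.1%, beside 35.9%). Under the other alternatives it lay between 33 (within 10 kb, 33.7%, beside 27.3%) and 61 (within 50 kb, 62.2%, beside 47.8%). Of the counts by complex and by motif, 126 stayed within that limit and 49 moved. Fewer summits enter the filtered counts and more enter that of replicate 2 by construction. No paired analysis was possible because the input samples were not analysed here and the KAP1 samples form 1 group. Read depth is unknown, so a gene without a summit is not shown to lack KAP1.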

Other observations

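The mitochondrial genome encodes further subunits of complexes I, III and IV and of the ATP synthase, and summits on it fall outside the rule for members. Replicate 1 had 8 summits there and replicate 2 had 6, of which 4 were shared. In ND2, a complex I subunit gene, replicate 1 had a summit at position 3987 (score 40.83, percentile 97.9) and replicate 2 one at 3992 (14.47, percentile 88.3). The pair at position 760 lay in the rRNA gene mt-Rnr1 (31.05 and 15.25). The pairs at 15508 (34.04 and 40.0), and at 16059 and 16053 (22.16 and 10.14), lay in no gene of the table. Replicate 1 alone had summits in ND5 (22.28), ND6 (17.03), CYTB (5.1) and mt-Rnr2 (7.43), and replicate 2 alone in ND1 (17.34) and ND4 (21.2). Reads from nuclear copies of mitochondrial DNA were not separated here.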
